A study of Homo sapiens with 6 samples.

Results

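A set of 10 well-known transcriptional targets of p53 with roles in DNA repair and in other tasks was followed in OCI-AML5 cells exposed to S767. They are DDB2, XPC, POLH, RRM2B, TIGAR, TRIAP1, FBXO22, CYFIP2, ACTA2 and KITLG, 10 of the 60609 genes in the count files, and were matched by symbol to the Ensembl identifiers of those files. OCI-AML5 is an established acute myeloid leukemia line, and all 6 libraries came from this single line grown in aMEM with heat-inactivated serum and GM-CSF. The 3 control libraries came from cells given DMSO, the solvent. The 3 others came from cells given 1 μM S767, a compound that the study took up for its activity against primary leukemia specimens, and both groups were harvested at 24 hours. The comparison asks what S767 does to gene expression in these cells. The 10 genes were chosen with this contrast in view, so their own differences between S767 and DMSO are given as a description. Counts of these genes past a threshold in the fit over all genes are printed beside the share of all genes, and no test of them is used as evidence.

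The p53 protein is a transcription factor that is held at a low level by the ubiquitin ligase MDM2 and accumulates when DNA is damaged or when other stresses reach the cell. It binds a DNA element made of a pair of similar 10-base stretches and raises the transcription of nearby genes. Its targets include regulators of the cell cycle and of apoptosis, but also genes that repair DNA, supply nucleotides, shift sugar metabolism or act outside the nucleus, and the 10 genes described here belong to this second kind.

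Gene counts per library ranged from 149994700 to 258029564. The lowest count of a member in any library was 933, for TIGAR, and the lowest for KITLG was 1736. How much of the spread between libraries is counting error was not tested. Labels describe the libraries of a group as replicates without naming what separates them, so p-values measure the spread between these samples. Libraries with the same replicate number deviated together from their group means (r between 0.754 and 0.872 over 6191 well-expressed genes). Differences are therefore also given within each numbered pair. Negative values between differently numbered libraries (r between -0.241 and -0.623) are no separate evidence, because the deviations within a group sum to 0. Of the 11 myeloid markers, 10 passed the count filter, with summed levels of 543.1 to 591.9 TPM (a level scaled to a fixed library total and corrected for transcript length) in DMSO and 536.6 to 597.6 in S767. Their single members moved in both directions. With the replicate block, CD38 and CD33 rose by 0.17 and 0.11 on the log2 scale (edgeR adjusted p = 0.00752 and 0.0241), while CEBPA and MPO had -0.07 and -0.07 (edgeR adjusted p = 0.121 and 0.234), and without the block 0 of 10 passed. The part of these markers in the results on the 10 genes was not tested. Lymphoid markers summed to 6.97 to 11.6 TPM in DMSO and 7 to 11.5 in S767. Most of this was 1 gene, CD79A, with means of 8.85 TPM in DMSO and 8.54 in S767. Of the 8 lymphoid markers, 4 were under 0.1 TPM in every library. For fibroblast and smooth muscle markers the sums were 1.44 to 1.97 and 1.37 to 1.74 TPM, with 8 of 11 markers under 0.1 TPM in every library and DCN and LUM at 0. KIT and CD34, stem and progenitor markers, were low at 0.26 and 1.55 TPM in DMSO. In bulk RNA, fewer cells of one state and less RNA per cell cannot be told apart.

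Every one of the 10 genes had a higher mean in S767 than in DMSO, by modest amounts. The log2 fold changes ran from 0.08 for FBXO22 to 0.33 for KITLG, with a median of 0.20, where the median of the 20725 genes tested was -0.0002 and 49.8% of them lay above 0. Of the 30 differences within pairs (10 genes in 3 pairs), 29 were above 0 in CPM, counts scaled to library size. On that scale 9 genes were higher in all 3 pairs, which holds for 19.9% of all genes tested. In 7 genes every S767 library lay above every DMSO library, which holds for 5.12% of all genes tested. In TPM, TIGAR was lower in S767 in pairs 2 and 3, and FBXO22 was lower in pair 1. With edgeR's quasi-likelihood test, 7 of the 10 genes had an unadjusted P under 0.05 in the higher direction, against 2.03% of all genes, and 0 passed an adjusted p of 0.05, against 0.00483%. By DESeq2 4 passed it, against 0.106% of all genes higher, and by edgeR with no filter on low counts 1 did, against 0.0198%. With the replicate number as a block, 7 passed the adjusted threshold, against 2.16%. When pair 2 was left out, 3 did, against 0.0943%. None reached a log2 fold change of 0.4 together with a P under 0.05, which 0.429% of all genes did. Because the genes were chosen on this contrast, nothing is read from these counts. The median within pairs was 0.21, 0.21 and 0.23 for replicates 1, 2 and 3.

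**Figure D1:**
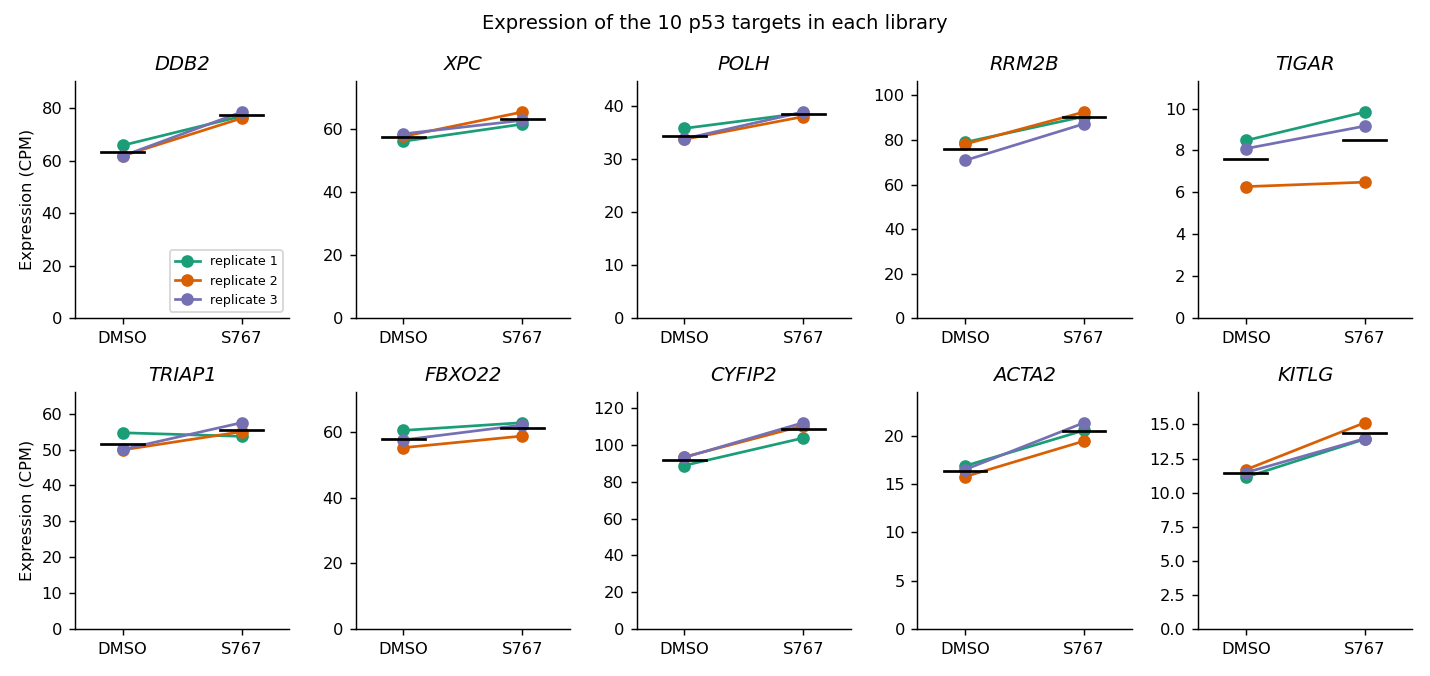
CPM (counts scaled to library size) of the 10 genes in each of the 6 libraries, with DMSO and S767 libraries drawn as separate points and libraries of one replicate number joined. The S767 points lie above all DMSO points in 7 genes, and the groups overlap in TIGAR, TRIAP1 and FBXO22.

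A p53 element was searched for in the RefSeq promoter windows (GRCh38.p14, 250 bases before to 50 bases after a transcription start), since these genes are grouped by their regulator. It was found near a start of DDB2 and of ACTA2. The sequences are shown because they are the matches to the p53 consensus in these windows and because the element at ACTA2 is shared with its neighbour FAS, which is described further on. Capitals mark the paired 10-base stretches of the p53 consensus, and a base between them is in lower case.
DDB2: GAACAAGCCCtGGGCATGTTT
ACTA2: TGGCTTGTCAGGGCTTGTCC
FAS: GGACAAGCCCTGACAAGCCA
The DDB2 element lies on the plus strand at chr11:47214979-47214999, from base 6 to base 26 after the start of that window's transcript, and has 0 mismatches to the consensus with a spacer of 1 base. The ACTA2 element lies on the minus strand at chr10:88991309-88991328, from base 10 to base 29 after a start, with 2 mismatches and no spacer. Read on the plus strand, the same 20 bases form the FAS element, which lies from base -122 to base -103 of a FAS start. Allowing up to 3 mismatches of 20 and a spacer of up to 13 bases on either strand, 4.5% of all 34943 windows hold such an element, and 10 windows, or 0.0286%, hold one without a mismatch. Of the members, 8 had a window (all but RRM2B and FBXO22), and 2 of their 11 windows held the element. A match is a description of letters and not of binding, and a window without a match says nothing about p53 elsewhere in the gene.

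The first group acts in DNA repair. Gene positions are those of GENCODE 29 on GRCh38. DDB2 (ENSG00000134574.11, chr11:47214465-47239240, plus strand) recognises ultraviolet damage in chromatin together with DDB1 and starts nucleotide excision repair. Its level was 65.9, 61.9 and 61.8 CPM (counts scaled to library size, not to length) in the DMSO libraries and 77.0, 76.2 and 78.6 CPM in the S767 libraries. The groups did not overlap, and the S767 libraries lay close to each other. The mean went from 63.2 ± 2.33 to 77.3 ± 1.21 CPM (SD, n = 3 each), a log2 fold change of 0.29 (SE 0.04), or 22.3% above DMSO.

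XPC (ENSG00000154767.14, chr3:14145147-14178783, minus strand) encodes the damage sensor that DDB2 hands lesions to in the genome-wide branch of the same pathway. DMSO libraries had 56.1, 57.6 and 58.4 CPM and S767 libraries 61.5, 65.3 and 62.7 CPM. The groups were apart by about as much as the libraries of a group differed among themselves. Mean levels were 57.4 ± 1.19 and 63.2 ± 1.97 CPM (SD, n = 3), a log2 fold change of 0.14 (SE 0.04).

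POLH (ENSG00000170734.11, chr6:43576150-43615660, plus strand) encodes DNA polymerase eta, which copies past ultraviolet lesions and is lost in the variant form of xeroderma pigmentosum. It had 35.8, 33.8 and 33.9 CPM in DMSO and 38.7, 38.0 and 38.9 CPM in S767. All S767 libraries were higher, with a spread of under 1 CPM among them. The means were 34.5 ± 1.17 and 38.6 ± 0.463 CPM (SD, n = 3), a log2 fold change of 0.16 (SE 0.04).

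RRM2B (ENSG00000048392.11, chr8:102204502-102239118, minus strand) encodes the p53-inducible small subunit of ribonucleotide reductase, which makes deoxynucleotides outside S phase. Its level was 79.0, 78.2 and 70.8 CPM in DMSO and 90.5, 92.6 and 87.3 CPM in S767. DMSO replicate 3 was the lowest library, and its S767 partner was the lowest of the S767 libraries. The mean moved from 76.0 ± 4.49 to 90.1 ± 2.68 CPM (SD, n = 3), a log2 fold change of 0.25 (SE 0.05), or 18.6% above DMSO.

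The second group acts in metabolism, cell survival and protein turnover, and in all 3 of its genes the groups overlapped. TIGAR (ENSG00000078237.7, chr12:4307763-4354593, plus strand) encodes a phosphatase that lowers fructose-2,6-bisphosphate and so slows glycolysis in favour of the pentose phosphate pathway. Its libraries had 8.48, 6.28 and 8.09 CPM in DMSO and 9.84, 6.49 and 9.16 CPM in S767. In CPM, replicate 2 was the low library in both groups, and the S767 library of that number lay under 2 of the DMSO libraries. Within pairs the log2 differences were 0.21, 0.05 and 0.18, and the log2 fold change was 0.16, with an SE of 0.17 that became 0.05 with the replicate block. TIGAR is also the member whose level depends most on the counting. RSEM assigned it 1.88 to 2.22 times the fragments that STAR counted, and another gene, ENSG00000285901, which overlaps it on the same strand had 0 STAR counts. Its effective length in RSEM varied from 2589 to 5098 bases between libraries. In TPM, TIGAR had 4.15, 6.83 and 5.52 in DMSO and 6.51, 6.18 and 5.47 in S767. On that scale replicate 2 was the highest DMSO library, and S767 was lower than DMSO in pairs 2 and 3.

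TRIAP1 (ENSG00000170855.4, chr12:120443961-120446412, minus strand) encodes a small protein that works with PRELID1 in carrying phosphatidic acid across the mitochondrial intermembrane space and protects cells from apoptosis. It had 54.7, 49.9 and 50.01 CPM in DMSO and 53.7, 55.0 and 57.5 CPM in S767. In CPM, replicate 1 was the only pair of the 30 member-pair differences that went down, with a log2 difference of -0.03. The other pairs had 0.14 and 0.20. The log2 fold change was 0.10 (SE 0.05).

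FBXO22 (ENSG00000167196.14, chr15:75903859-75942510, plus strand) encodes the substrate receptor of an SCF ubiquitin ligase that acts on KDM4 histone demethylases and BACH1. Levels were 60.5, 55.2 and 57.6 CPM in DMSO and 62.8, 58.8 and 62.1 CPM in S767. In CPM, the S767 replicate 2 library lay under the DMSO replicate 1 library, while each S767 library was above the DMSO library of its own number. In TPM, replicate 1 went down, from 34.12 in DMSO to 33.33 in S767. The log2 fold change was 0.08 (SE 0.05), the lowest of the 10, and pair differences were 0.06, 0.09 and 0.11.

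The third group acts in the cytoskeleton and in signaling between cells. CYFIP2 (ENSG00000055163.20, chr5:157266079-157395595, plus strand) encodes a subunit of the WAVE complex, which relays the GTPase RAC to branched actin assembly. It had 89.0, 93.6 and 93.3 CPM in DMSO and 104, 111 and 112 CPM in S767. All S767 libraries lay above the DMSO libraries, and replicate 1 was the lowest in both groups. Means were 92.0 ± 2.60 and 109 ± 4.41 CPM (SD, n = 3), a log2 fold change of 0.24 (SE 0.04), and pair differences were close, at 0.22, 0.24 and 0.27.

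ACTA2 (ENSG00000107796.13, chr10:88935074-88991339, minus strand) encodes the contractile alpha actin of smooth muscle. Its libraries had 16.9, 15.7 and 16.5 CPM in DMSO and 20.5, 19.4 and 21.3 CPM in S767. The groups were well apart, with replicate 2 lowest in each. The mean went from 16.4 ± 0.565 to 20.4 ± 0.953 CPM (SD, n = 3), a log2 fold change of 0.32 (SE 0.06), or 24.9% above DMSO. RSEM gave ACTA2 1.296 to 1.329 times the STAR counts in the 6 libraries. Actin genes are close copies of each other, so its level is uncertain where the counting could split reads between them.

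KITLG (ENSG00000049130.16, chr12:88492793-88580851, minus strand) encodes stem cell factor, the ligand of the receptor tyrosine kinase KIT. It had 11.1, 11.7 and 11.5 CPM in DMSO and 13.9, 15.1 and 14.0 CPM in S767. The gap between groups was several times the range within DMSO. Means were 11.4 ± 0.278 and 14.3 ± 0.684 CPM (SD, n = 3), a log2 fold change of 0.33 (SE 0.06), or 25.5% above DMSO, the highest of the 10.

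**Figure D2:**
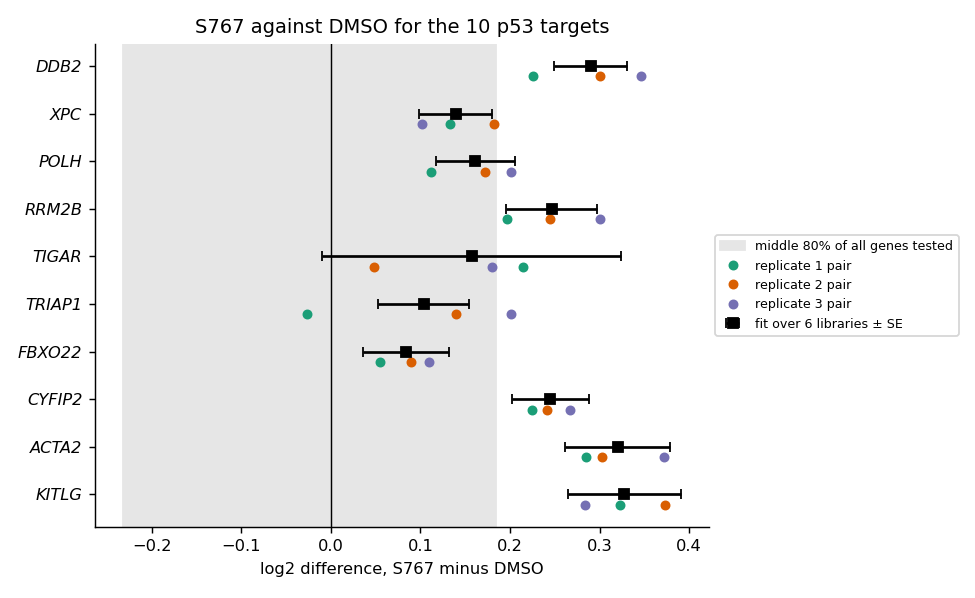
Log2 fold change of S767 over DMSO for the 10 genes, with the fitted value and its standard error and the 3 differences within replicate pairs as points. The shaded band holds the middle 80% of all genes tested, from -0.23 to 0.18. The fitted values run from 0.08 for FBXO22 to 0.33 for KITLG.

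Length-corrected levels place the 10 genes over a wide range in DMSO. DDB2 was highest at 69.0 ± 1.93 TPM, followed by TRIAP1 at 65.5 ± 3.40 TPM (SD, n = 3). CYFIP2, ACTA2 and FBXO22 formed a middle tier with 31.9 ± 0.934, 31.3 ± 1.34 and 30.8 ± 2.84 TPM. These neighbours cannot be ordered, as their libraries overlapped, and the same holds for DDB2 and TRIAP1. RRM2B at 22.9 ± 1.64 TPM and XPC at 21.5 ± 0.310 TPM overlapped too. POLH followed with 12.9 ± 0.583 TPM, TIGAR with 5.50 ± 1.34 TPM and KITLG with 2.74 ± 0.0723 TPM, each apart from the next. In S767, DDB2 at 81.7 ± 1.89 TPM and TRIAP1 at 69.7 ± 2.25 TPM no longer overlapped, while CYFIP2 and ACTA2, at 36.7 ± 1.31 and 38.7 ± 2.19 TPM, still did. In TPM as in CPM, the groups did not overlap in 7 of the 10 genes, against 3.31% of all genes tested.

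**Figure D3:**
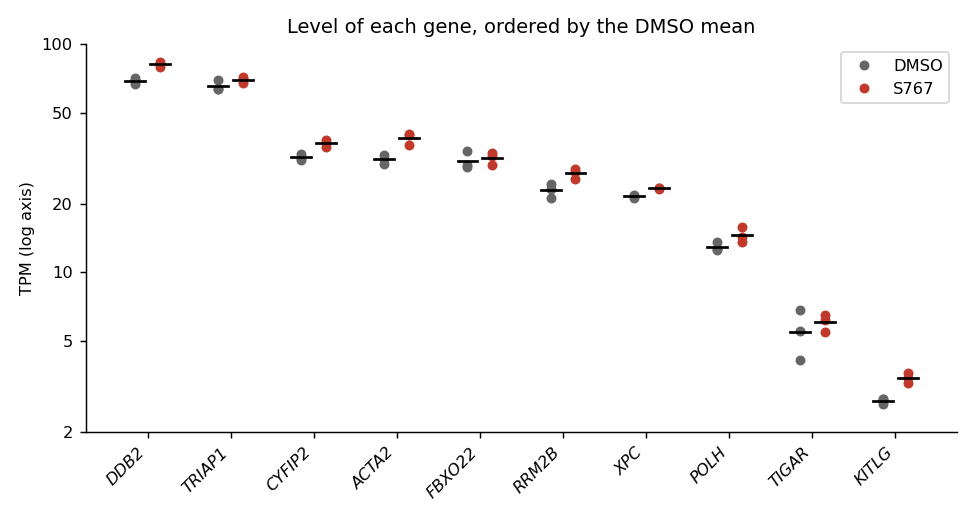
TPM of the 10 genes per library on a log scale, ordered by the DMSO mean. Levels run from 69.0 TPM for DDB2 to 2.74 TPM for KITLG in DMSO, and the libraries of DDB2 and TRIAP1, of CYFIP2, ACTA2 and FBXO22, and of RRM2B and XPC overlap in that group.

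The members' median SD of log2 CPM was 0.0513 among DMSO libraries and 0.0510 among S767 libraries, where the 7237 tested genes in the same range of levels had 0.0663 and 0.0645. TIGAR had the widest spread, 0.233 and 0.321, and in DMSO RRM2B and TRIAP1, at 0.0867 and 0.0752, also lay above the value of those genes. By the distance between profiles, each centred on its mean over the 6 libraries, POLH was closest to the members' mean profile (root mean square difference of 0.0264 in log2 CPM) and TIGAR was farthest, at 0.206. Outside the members, genes with among the closest profiles were the unnamed gene ENSG00000285906 at 0.0253 and DLG5, a scaffold protein, at 0.0259. Their log2 fold changes were 0.17 and 0.18. They were picked for this likeness, which is therefore no test.

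The direct partners of the 10 proteins were not used to choose the members and were tested. Their lists were written with earlier results of these data known, so their counts are no independent evidence. In 9 lists of partner genes, 136 of 141 genes passed the filter, with a median log2 fold change of 0.0127. With edgeR's quasi-likelihood test, 6 had an unadjusted P under 0.05 in the higher direction, or 4.41% against 2.03% of all genes, and 2 in the lower direction, or 1.47% against 1.51%. Without the block, 0 passed an adjusted p of 0.05 by edgeR with the low-count filter, limma-voom or DESeq2, and 1, PFKFB4, was lower past it by edgeR with no filter. With the replicate block, 7 rose and 1 fell at an adjusted p under 0.05, or 5.15% and 0.735%, against 2.16% and 1.08% of all genes. With RSEM expected counts and the block, 3 rose and 0 fell. All 8 kept their call when pair 1 was left out, 5 when pair 3 was left out and 0 when pair 2 was left out.

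**Figure D4:**
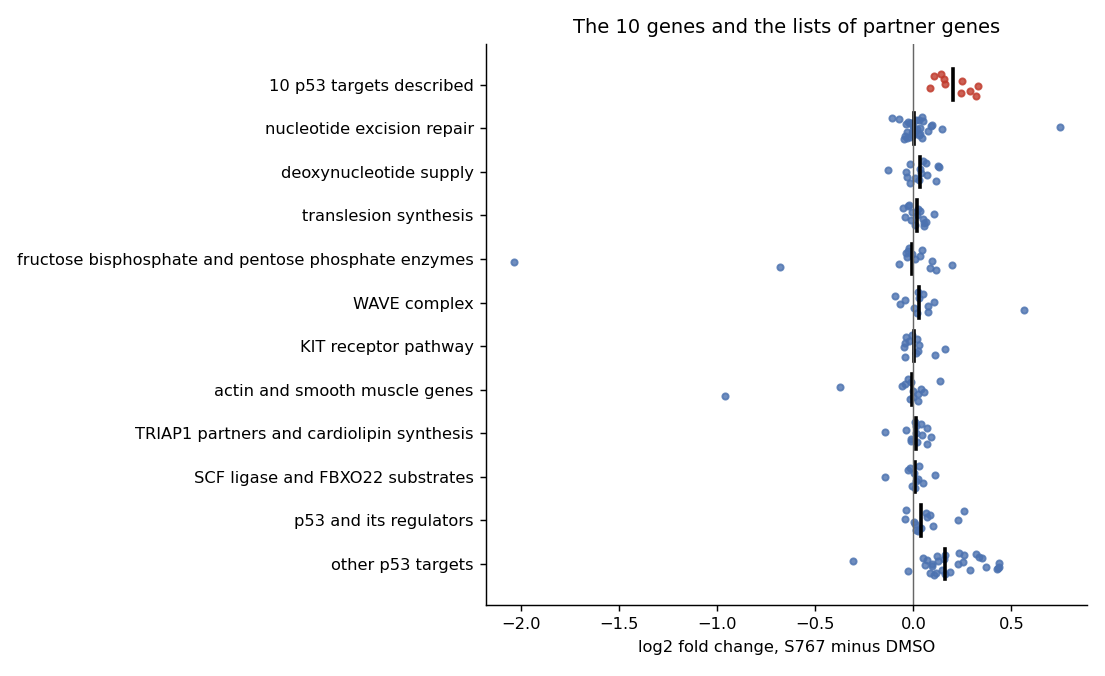
Log2 fold changes of the tested genes in each partner list and in the lists of p53 regulators and other p53 targets, with the 10 described genes in the top row and a line at each list's median. The medians of the 9 partner lists lie between -0.009 and 0.0314, and that of the other p53 targets is 0.16.

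Among partners of DDB2 and XPC, 30 nucleotide excision repair genes had a median log2 fold change of 0.0016. GTF2H1, a subunit of the repair and transcription factor TFIIH, went from 59.6 ± 2.82 to 66.0 ± 2.35 CPM (SD, n = 3), a log2 fold change of 0.15 with an adjusted p of 0.00897 by edgeR with the block and 1 without. LIG3, a DNA ligase, rose by 0.09 on the log2 scale with the block (edgeR adjusted p = 0.0494). DDB1, the obligate partner of DDB2, stood at 180.3 TPM in DMSO and had a log2 fold change of -0.0015 (SE 0.04, adjusted p = 0.987 by edgeR with the block). The difference between DDB1 and DDB2 was not tested.

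Deoxynucleotide genes, the setting of RRM2B, had a median of 0.0314 over 15 genes. RRM2, the S phase small subunit that RRM2B replaces, was at 205.7 TPM in DMSO, beside 22.9 TPM for RRM2B. It went from 399.3 ± 12.4 to 436.6 ± 23.1 CPM, a log2 fold change of 0.13 (SE 0.05, edgeR adjusted p = 0.0186 with the block and 1 without). SAMHD1, which breaks deoxynucleotides down, had the same fold change of 0.13 (edgeR adjusted p = 0.0340 with the block). RRM1, the shared large subunit, had 0.03 (SE 0.04, edgeR adjusted p = 0.546 with the block).

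The 15 translesion synthesis genes around POLH had a median of 0.0171. REV3L, the catalytic subunit of polymerase zeta, had a log2 fold change of 0.11 with the block (edgeR adjusted p = 0.0447). POLK, a polymerase of the same family as POLH, had -0.01 (SE 0.05, edgeR adjusted p = 0.898 with the block).

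Around TIGAR, 15 enzymes of fructose bisphosphate turnover and of the pentose phosphate pathway had a median of -0.0051. PFKFB4, a bifunctional enzyme that makes and breaks fructose-2,6-bisphosphate, was at 1.96, 11.6 and 6.56 CPM in DMSO and at 2.08, 1.42 and 1.34 CPM in S767. DMSO replicates 2 and 3 were high, whereas DMSO replicate 1 was as low as the S767 libraries. Its log2 fold change was -2.04 (SE 0.53), or -1.77 with the block (edgeR adjusted p = 0.0282), and -1.12 without the replicate 2 pair (adjusted p = 0.457). PFKL, the liver form of phosphofructokinase, rose by 0.10 on the log2 scale with the block (edgeR adjusted p = 0.0385). PFKFB1 had few counts, 20 to 63 per library, and a log2 fold change of -0.68 (edgeR adjusted p = 0.202 with the block).

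Of the WAVE complex genes around CYFIP2, 12 of 13 were tested, with a median of 0.0269. NCKAP1L, the blood cell form of the NCKAP1 subunit, rose by 0.11 on the log2 scale with the block (SE 0.04 and adjusted p = 1 without, edgeR adjusted p = 0.0259 with it). CYFIP1, the close relative of CYFIP2, had a log2 fold change of 0.08 (SE 0.05, edgeR adjusted p = 0.103 with the block).

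None of the 12 tested genes of the KIT receptor pathway passed edgeR's adjusted threshold or had an unadjusted P under 0.05, with or without the block, and their median was 0.004. KIT itself was near its floor, at 0.568, 1.5 and 0.998 CPM in DMSO and 0.663, 1.59 and 1.16 CPM in S767. The ligand KITLG, at 2.74 TPM in DMSO, stood above its receptor KIT, at 0.26 TPM, on the scale per length.

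Actin and smooth muscle genes beside ACTA2 had a median of -0.009 over 14 tested of 18. ACTB, the main cytoskeletal actin, was at 4644 TPM in DMSO with a log2 fold change of -0.02 (SE 0.05, edgeR adjusted p = 0.795 with the block). TPM1, a tropomyosin, had 0.14 (SE 0.05, edgeR adjusted p = 0.0503 with the block), and CNN1, a calponin with 8 to 83 counts per library, had -0.96 (SE 0.50, edgeR adjusted p = 0.0508 with the block). SRF, a transcription factor of muscle and actin genes, had -0.06 (SE 0.04, edgeR adjusted p = 0.283 with the block). The other markers of smooth muscle were nearly absent. ACTG2, ACTC1 and MYL9 were at 0 TPM, MYH11 at 0.0133, CNN1 at 0.233 and TAGLN at 1.26 TPM, beside the 31.3 TPM of ACTA2.

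The 13 genes of cardiolipin synthesis and TRIAP1 function had a median of 0.013, and the 11 genes of the SCF ligase and of FBXO22 substrates had 0.0094. Neither list had a gene with an unadjusted P under 0.05 without the block or past an adjusted p of 0.05 with it (edgeR). PRELID1, the partner of TRIAP1, had 0.04 (SE 0.04, edgeR adjusted p = 0.474 with the block). SKP1, the adaptor of SCF ligases, had -0.02 (SE 0.05, edgeR adjusted p = 0.830 with the block).

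MDM2, the negative regulator of p53 and also a p53 target, had 144.2, 136.7 and 136.2 CPM in DMSO and 169.4, 152.5 and 166.1 CPM in S767. The groups did not overlap, and the log2 fold change was 0.23 (SE 0.05, edgeR adjusted p = 0.00103 with the block and 1 without). TP53INP1, a p53 cofactor and target, had 0.26 (edgeR adjusted p = 0.00305 with the block, 0.131 when pair 2 was left out), and the kinase CHEK2 had 0.10 (0.0785). Of the 13 regulators, 2 were higher past edgeR's adjusted threshold with the block, against 2.16% of all genes. Without the block, 0 passed it by edgeR, limma-voom or DESeq2. In edgeR without the block, 3 were higher with an unadjusted P under 0.05, against 2.03%.

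A list of 30 other p53 targets was written with earlier results of these data known and so is no independent evidence. Of these targets, 28 lay above 0, against 49.8% of all genes tested. Their log2 fold changes ran from -0.31 to 0.44 around a median of 0.16. MDM2, PPM1D and TP53INP1 stand in this list and in that of the regulators. By edgeR, 18 were higher with an unadjusted P under 0.05, against 2.03% of all genes, and 0 passed the adjusted threshold, against 0.00483%. By DESeq2 5 passed it, against 0.106%. With the block, 20 rose at an edgeR adjusted p under 0.05, against 2.16%, or 5 when pair 2 was left out, against 0.0943%. FDXR, which acts in an early step of iron-sulfur cluster synthesis, had 0.37 (SE 0.05, edgeR adjusted p = 0.000359 with the block). PHLDA3, an inhibitor of AKT signaling, had 0.44 (SE 0.07, edgeR adjusted p = 0.000298 with the block), above every one of the 10 members. PMAIP1, which encodes the apoptosis inducer NOXA, had -0.31 (SE 0.19, edgeR adjusted p = 0.112 with the block). Its libraries had 42.29, 74.86 and 46.65 CPM in DMSO and 40.87, 47.3 and 43.86 CPM in S767. DMSO replicate 2 was far above all other libraries, so the size of this fall rests mainly on that library. FDXR, PHLDA3 and PMAIP1 were named after their values were seen.

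A gene that starts close to a member on the other strand offers a local comparison that the choice of members did not use. Within 1000 bases, 5 such neighbours had enough counts to be tested, and 3 more, near CYFIP2 and KITLG, had at most 5 counts per library. GATC, whose start lies 26 bases from that of TRIAP1, had 37.6 ± 0.742 CPM in DMSO and 37.4 ± 1.24 CPM in S767 (SD, n = 3), a log2 fold change of -0.01 (SE 0.04, edgeR adjusted p = 0.936 with the block). XPO5, which exports microRNA precursors and starts 75 bases from POLH, had -0.04 (SE 0.04, edgeR adjusted p = 0.472 with the block). LSM3, an RNA-binding protein gene that starts 425 bases from XPC, had 0.08 (SE 0.05, edgeR adjusted p = 0.212 with the block).

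FAS, which encodes a death receptor and starts 757 bases from ACTA2, was the neighbour that passed the adjusted threshold with the block. It had 8.46, 6.71 and 7.16 CPM in DMSO and 11.01, 9.63 and 9.64 CPM in S767. Every S767 library was above every DMSO library. The means were 7.44 ± 0.907 and 10.1 ± 0.795 CPM (SD, n = 3), a log2 fold change of 0.44 (SE 0.10), with an edgeR adjusted p of 0.000574 with the block and 1 without. The call was lost without the replicate 2 pair (adjusted p = 0.0568), with the log2 fold change at 0.40. FAS and ACTA2 overlap on opposite strands and were counted by strand. The 20-base element printed above lies after a start of ACTA2 and before a start of FAS, in 1 of the 3 FAS windows. Both genes were higher in all 3 pairs, and a part of the element in this was not tested. FAS is also in the list of other p53 targets, which was written with earlier results of these data known. Its rise is therefore no independent evidence.

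**Figure D5:**
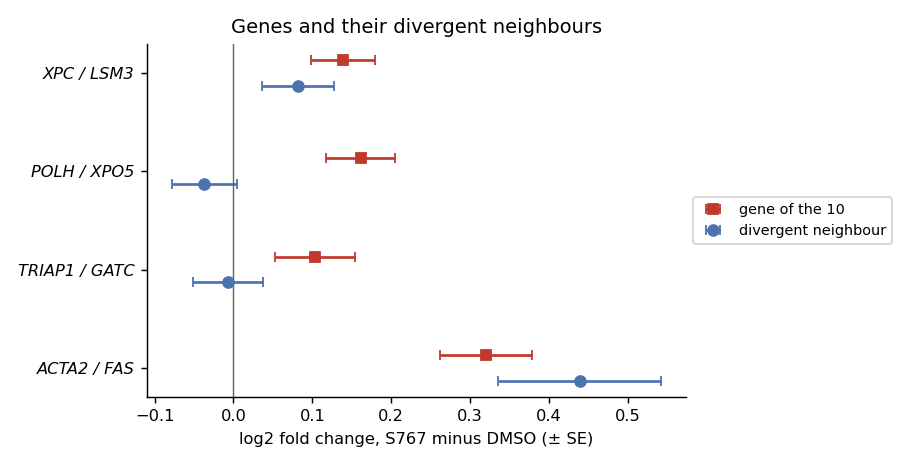
Log2 fold change with its standard error for the tested protein-coding neighbours beside the member it starts next to. FAS has 0.44 beside 0.32 for ACTA2, while the neighbours of TRIAP1, POLH and XPC lie between -0.04 and 0.08.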

How the data were processed

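Gene expression was measured by strand-specific sequencing of poly(A) RNA in 3 DMSO and 3 S767 libraries of OCI-AML5, grouped by the treatment in their labels. Alignment used STAR 2.7.1a and quantification RSEM 1.2.28 on GRCh38, per the submitters' processing notes. The annotation release is not given in the sources used here, and 58502 of 60609 identifiers occur in GENCODE 29, whose positions are given.

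The authors deposited STAR counts per gene, whole numbers without normalization, with a column for each strand, and the reverse strand column was used. The authors also deposited RSEM expected counts, rounded here for an alternative, and TPM, scaled by RSEM to the same total in each library and used to compare levels between genes. Effective lengths in the deposited RSEM tables were read as given. Lines naming no gene hold 20.3% of fragments and were left out. The forward strand held 6.44% to 6.58% of gene counts on both strands. Each library had 149994700 to 258029564 gene counts, and the part of counting error in the spread between libraries was not tested.

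Counts were fitted across the whole table with edgeR 4.0.16 in R 4.3.3 (TMM, filterByExpr with a minimum count of 10, quasi-likelihood test, Benjamini-Hochberg adjustment over 20725 genes), without a replicate block, since the study's methods name limma-voom with no block. The fold changes are on the log2 scale of that fit. Differences within pairs are of log2 CPM with a prior count of 2. Other fits used DESeq2 1.42.0, voom in limma 3.58.1, library size alone, RLE size factors, no filter on low counts, RSEM expected counts, counts without regard to strand, the replicate block and leaving out each library or pair. RSEM expected counts and library size alone, each with the replicate block, were added after seeing the data. The code was tested on simulated data with known changes, where the share of false calls at an adjusted p of 0.05 lay above that level both with and without the block, so calls just past the threshold are uncertain. The simulated libraries were not paired by replicate number, so they cannot show how the block behaves on paired samples.

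Libraries with the same replicate number correlated in their deviations from the group means (r = 0.779, 0.872 and 0.754 over 6191 genes), and those with different numbers correlated negatively. The numbers were therefore taken to pair the samples, a link known from the values and not from the labels.

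The members and lists were chosen with earlier results of these data known. Named genes are the 10 members, the direct partners DDB1, RRM1, RRM2, POLK, CYFIP1, KIT, ACTB, PRELID1, SKP1 and MDM2, partner genes past an adjusted p of 0.05 with or without the block and up to 4 per list with the lowest unadjusted P under 0.05, neighbours that start within 1000 bases on the opposite strand, and the 3 genes with a mean of at least 1 CPM and the closest profile. Some genes that this rule names are not reported here.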

Additional observations from a re-analysis of the deposited data

How the results depend on the processing

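The members' median log2 fold change was 0.203 and ranged from 0.187 to 0.231 over 19 alternatives. It ranged from 0.188 to 0.231 with 1 library left out and from 0.187 to 0.220 with 1 pair left out under the block. All 190 fold changes of single members under the alternatives were above 0, and 181 moved by less than 1 SD of the pair differences. TIGAR moved most, from 0.04 without DMSO replicate 2 or S767 replicate 1 to 0.32 without S767 replicate 2. TRIAP1 had 0.17 under the block without pair 1 and 0.05 without pair 3, and FBXO22 had 0.05 without DMSO replicate 2.

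Counts of calls depended on the replicate block, that is, on whether the pairing was used. In brackets stand the range with 1 library left out and then the counts under the block without pair 2, 3 or 1. Genes higher with P under 0.05 numbered 420 without the block and 1943 with it (285 to 547, and 1035, 1582 and 2321). Genes lower numbered 312 and 1532, or 512 with no filter on low counts (200 to 486, and 860, 1209 and 2041). Past an adjusted p of 0.05 there was 1 gene, against 670 with the block, 25 by DESeq2 and 9 with no filter (1 to 2, and 24, 636 and 2034). Partner genes with P under 0.05 numbered 8, against 29 with the block and 5 both by DESeq2 and without regard to strand (3 to 10, and 13, 23 and 44, with 3 without S767 replicate 2 or 3 and 4 without DMSO replicate 3). Other p53 targets numbered 18 (12 to 20, and 21, 24 and 28), and divergent neighbours 1, against 2 with the block (1 to 1, and 1, 1 and 3). With the block and pair 1 left out, 9 members passed an edgeR adjusted p of 0.05, where 2034 of all 20629 genes did in either direction. With pair 2 left out, 3 members did, where 24 of 21198 genes did. With pair 3 left out, 7 members did, where 636 of 20801 genes did. The cause of these shifts was not tested.

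The main limits are 1 cell line, 1 dose and 1 time, 3 libraries a group, and members chosen on the contrast described.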
